A study of Mus musculus with 8 samples.

Results

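Imprinted genes were followed in nephron progenitors, the cells of the embryonic kidney that give rise to nephron epithelium, in the mouse. A list of 44 genes that are known to be imprinted in the mouse was matched to the deposited table by symbol. The table held 43 of them, and the 41 with a mean of at least 10 normalised reads are described here, of 20254 genes in the table. They fall into 18 clusters or single loci. RNA sequencing of polyadenylated transcripts was done on cells sorted by the green fluorescence of Six2EGFPcre, a transgene that makes a GFP and Cre fusion protein under the progenitor transcription factor Six2. All 8 libraries carry the transgene and come from kidneys at embryonic day 17.5. In the 4 control libraries the cells are labelled VHLNP+/-, with Vhl deleted on 1 allele, and in the 4 mutant libraries VHLNP-/-, with Vhl deleted on both. The controls are therefore heterozygous cells and not wild type. The sort takes every cell with GFP, which can persist in cells that have just left the progenitor pool. Nothing in the labels states that replicate libraries came from different embryos, so each p-value reflects only the spread of these samples, some of which may be technical. Values after ± are SDs over the 4 libraries of a group.

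An imprinted gene is expressed mainly from the chromosome inherited from the mother or mainly from that inherited from the father. The choice is set by DNA methylation laid down in the germ line at a control region, which often serves several neighbouring genes and a long noncoding RNA. Many imprinted genes act on fetal growth: paternally expressed Igf2 and Mest are known as growth promoters, and maternally expressed Igf2r, Grb10, H19 and Phlda2 as restraints. The libraries hold no information on which parental allele a read came from, so they measure the total level of each gene and not its imprint.

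Reads assigned to genes totalled 37252683 to 46515762 per library. Normalised reads, used throughout, are reads divided by the size factor of the library. Vhl, whose product targets hypoxia-inducible factor (HIF) for degradation, averaged 1225 ± 107 normalised reads over controls and 318 ± 23.2 over mutants (n = 4 each), with no overlap between the groups. Progenitor markers such as Six2 were present in all libraries, with a summed level of 130193 to 142304 normalised reads over 14 genes in controls and 126571 to 137281 in mutants. Of these 14 genes, Gdnf rose and Osr1, Meox1, Tmem100 and Dpf3 fell, against 8.43% called among all genes, and 12 of the 14 had a log2 difference below 0. Control 3 and mutant 2 stood apart from the rest of their groups and deviated together from their group means (Pearson r across genes 0.57), so results that rest on them are given without them too. Markers of other cells were found in all libraries, and no marker in the table was at 0 throughout. The sums for stroma (15 genes) were 49999 to 94147 in controls and 45293 to 77497 in mutants. Those for podocytes (10 genes) were 10897 to 20604 and 8871 to 12999, or 2798 to 9661 and 2117 to 3764 without Cdkn1c, an imprinted gene that made up most of the sum. The sums were, for ureteric bud (10 genes) 2172 to 5378 and 3239 to 6093, for endothelium (10 genes) 1395 to 2635 and 1911 to 2529, and for leukocytes (10 genes) 554.1 to 1052 and 630.6 to 1013. Of these lists, 1 podocyte marker fell, 1 endothelial marker rose, and no stroma, ureteric bud or leukocyte marker was called. By log2 difference, all 10 ureteric bud markers lay above 0 (median 0.58) and 9 of 10 podocyte markers below 0 (median -0.63). Above 0 were 8 of 15 stroma, 6 of 10 endothelial and 3 of 10 leukocyte markers. In bulk samples, fewer cells of a type and less RNA per cell cannot be told apart.

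Few imprinted genes differed between control and mutant libraries. Of the 41 genes, Ascl2 rose, Mest, Nnat and Zdbf2 fell, and 37 did not pass the test (limma, adjusted p under 0.05 over 15381 genes). Across all genes 8.43% were called, 5.40% as higher and 3.03% as lower, and Ascl2 passed the minimum level only through its mutant libraries, so 4 calls among 41 genes is a share near the background and is no result about imprinted genes as a class. The median log2 fold change, mutant minus control, was 0.03 for the imprinted genes and -0.01 for all genes, and the median absolute value was 0.12 for both. Of the 41 genes, 24 lay within 0.2 of no change on the log2 scale, against 69.2% of all genes. An unadjusted p under 0.05 was reached by 2 higher and 4 lower genes, against 23.3% of all genes. In 6 genes the groups did not overlap, against 15.3% of all genes: Ascl2, Dio3 and Copg2 were higher in each mutant library (8.54% of all genes), and Mest, Zdbf2 and Magel2 were lower (6.72%). The authors' deposited table gives an adjusted p for 40 of the 41 genes and calls the same 4 in the same directions, against 12.5% of all genes with an adjusted p in it.

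**Figure D1:**
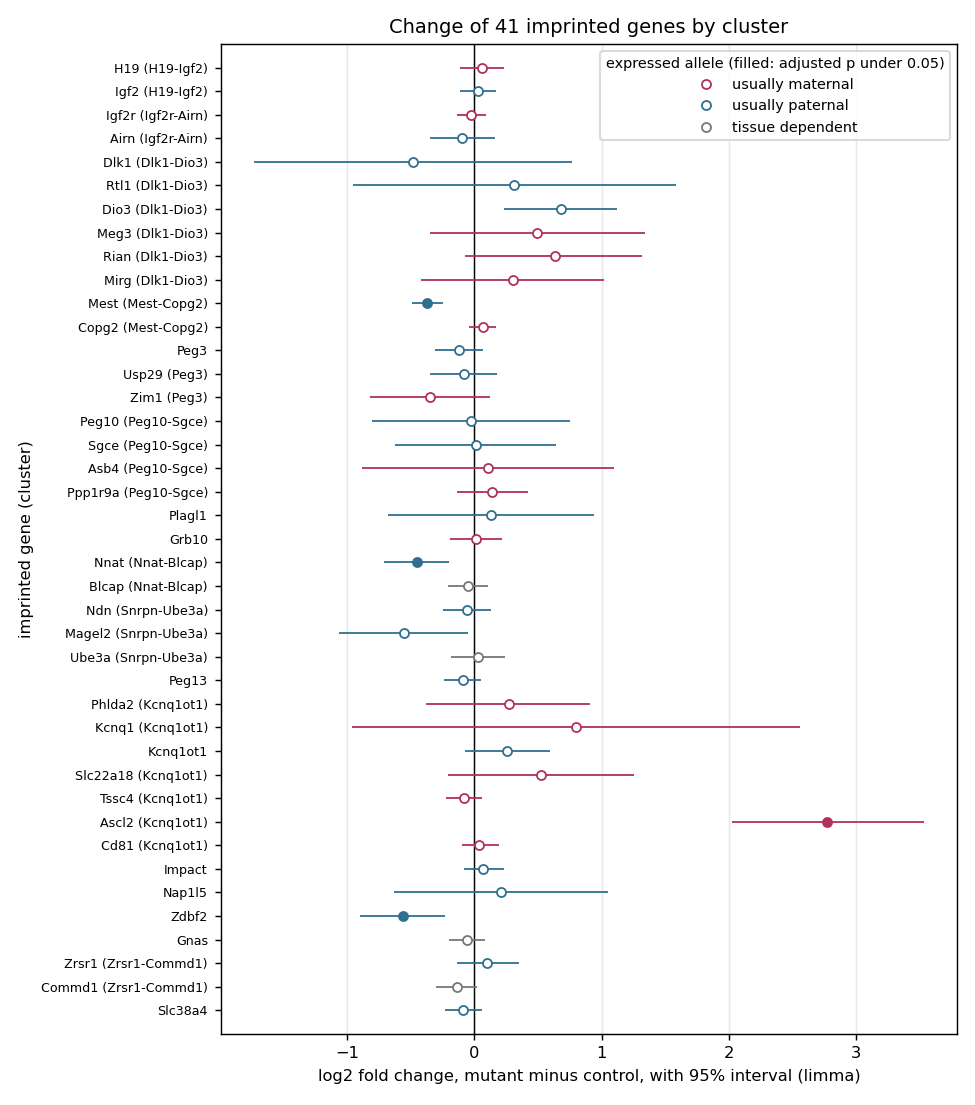
Log2 fold change of the 41 imprinted genes, mutant minus control on the scale log2(normalised reads + 1), with 95% intervals from limma, grouped by cluster and coloured by the allele that is usually expressed. Filled points mark the 4 genes called at an adjusted p under 0.05: Mest, Nnat and Zdbf2 lie left of 0 and Ascl2 lies at 2.77, while genes such as Dlk1, Rtl1 and Kcnq1 have intervals wider than 2 units.

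By the allele that is usually expressed, the 16 maternally expressed genes had 1 call (Ascl2, higher, tested only through its mutant level), against 5.40% of all genes called higher, and a median log2 fold change of 0.13. The 21 paternally expressed genes had 3 calls (Mest, Nnat and Zdbf2, all lower), against 3.03% of all genes called lower, and a median of -0.06. The calls of Nnat and Zdbf2 were lost in 11 and 12 of 19 other settings. The 4 genes filed here as tissue dependent (Blcap, Ube3a, Gnas and Commd1) had 0 calls, against 8.43% of all genes, and a median of -0.06. Some genes filed as maternal, Copg2 and Ascl2 among them, are known as such in some tissues or in trophoblast. Whether any of these genes is imprinted in these cells was not measured. The difference between maternally and paternally expressed genes was not tested, and the median over all genes was -0.01.

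Levels differed widely among the genes. Per kilobase of exon, H19, a maternally expressed long noncoding RNA that carries the microRNA gene Mir675, ranked 5 among the 15381 tested genes in the controls. Igf2 ranked 102, Mest 107, Grb10 170, Gnas 348 and Nnat 413 on the same scale. At the other end, 10 of the 41 genes averaged under 100 normalised reads, among them Rtl1, Mirg, Magel2 and Phlda2, and 7 averaged over 10000. Together the imprinted genes took between 1.15% and 1.27% of the reads of a library, and H19 alone took between 0.374% and 0.446%. The share was 1.21% to 1.27% in controls and 1.15% to 1.23% in mutants.

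**Figure D2:**
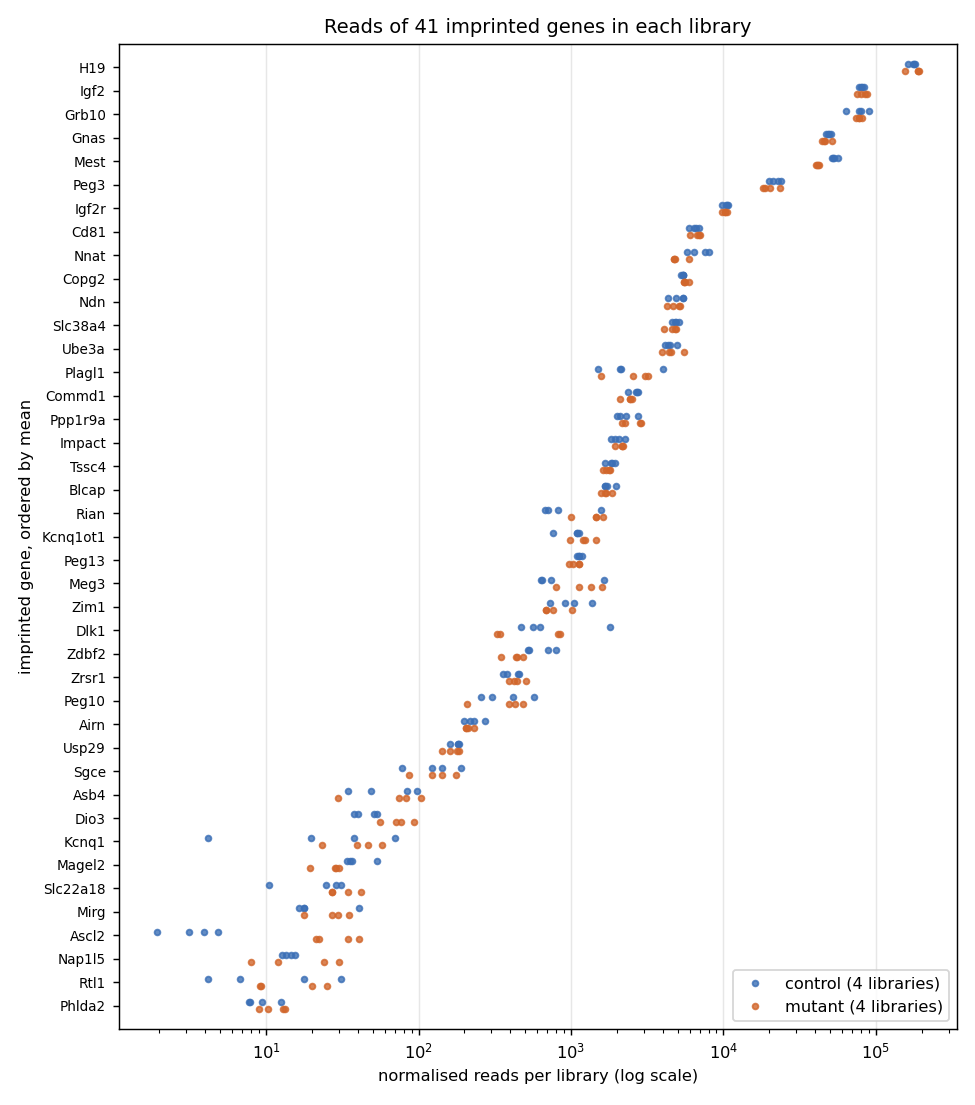
Normalised reads of the 41 imprinted genes in each of the 8 libraries on a log axis, ordered by mean level, with controls in blue and mutants in orange. The genes span from H19, with means of 173531 and 181604 normalised reads, to Phlda2, with means of 9.375 and 11.41, and the libraries of a group spread widely in Dlk1, Rtl1, Kcnq1 and Asb4.

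Mest showed the change with the least spread. Mest is a paternally expressed gene for an enzyme of the alpha/beta hydrolase fold, known for expression in mesoderm, and lies at chr6:30723547-30748465 (mm10, plus strand). It was at 51958, 56692, 53460 and 51651 normalised reads in controls 1 to 4 and at 41682, 40477, 42580 and 41057 in mutants 1 to 4. Each mutant library was below each control library, and the 4 mutants lay within a narrow band. Mest fell by 0.37 in log2 units (SE 0.05, limma adjusted p = 0.0016), to 77.6% of the control level. The call held in all 19 other settings, with an adjusted p of up to 0.0325, and without control 3 and mutant 2 the gene fell by 0.35 (limma adjusted p = 0.0267). Its neighbour Copg2, which encodes a subunit of the vesicle coat COPI and is expressed mainly from the maternal allele in some tissues, runs in the opposite direction, and the 3′ exons of the genes overlap. Copg2 was at 5379 ± 85.5 normalised reads across controls and 5639 ± 187 in mutants (n = 4 each), a log2 difference of 0.07 (95% interval -0.04 to 0.17, limma adjusted p = 0.446). No source used here says whether the counting took strand into account, so reads over the shared exon may be split between the genes.

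Nnat and Zdbf2 were also lower in mutants, with larger spread. Nnat encodes neuronatin, a small membrane protein of the endoplasmic reticulum, and sits inside an intron of Blcap at chr2:157560078-157562522 (mm10, plus strand). It was at 6383, 7557, 8091 and 5767 normalised reads in controls 1 to 4 and at 4845, 4708, 4715 and 5934 in mutants 1 to 4. Mutants 1 to 3 were below each control, and mutant 4 was above control 4, so the groups overlapped. Nnat fell by 0.45 in log2 units (SE 0.11, limma adjusted p = 0.0352). The call was lost in 11 of the 19 other settings, including those without control 2 (adjusted p = 0.101), control 3 (0.0679), mutant 1 (0.0764), mutant 2 (0.0931) and mutant 3 (0.115), and without both control 3 and mutant 2 (0.149). Blcap, the host gene, was at 1759 ± 144 in controls and 1694 ± 122 in mutants (n = 4 each), a log2 difference of -0.05 (95% interval -0.21 to 0.11, limma adjusted p = 0.72).

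Zdbf2 encodes a zinc finger protein, and its imprint is known to be set by a transcript that is active only in the early embryo. It lies at chr1:63273265-63314576 (mm10, plus strand). It was at 795.8, 525.4, 708.6 and 527.4 normalised reads in controls 1 to 4 and at 349.5, 441.4, 486.2 and 434.5 in mutants 1 to 4. Each mutant library was below each control library, and controls 1 and 3 were the highest. Zdbf2 fell by 0.56 in log2 units (SE 0.15, limma adjusted p = 0.0429). The call was lost in 12 of the 19 other settings, including those without control 1 (adjusted p = 0.0632), control 3 (0.105), mutant 1 (0.0817), mutant 2 (0.0841), mutant 3 (0.0561) and mutant 4 (0.106), and without both control 3 and mutant 2 (0.163). Without controls 1 and 3 the difference was -0.31 (limma adjusted p = 0.179). In these settings the direction stayed the same for Nnat and Zdbf2.

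Ascl2 had few reads in controls and more in each mutant. It encodes a basic helix-loop-helix transcription factor, is expressed from the maternal allele in the trophoblast lineage, where it is required for the placenta, and is a Wnt target in intestinal stem cells. It lies at chr7:142966829-142969264 (mm10, minus strand), at the edge of the Kcnq1ot1 cluster. Controls 1 to 4 held 5, 4, 3 and 2 reads of it and mutants 1 to 4 held 43, 24, 21 and 30, or 14 against 118 reads in all. The lowest mutant library was well above the highest control library. In normalised reads the level was 3.458 ± 1.24 in controls and 29.63 ± 9.53 in mutants (n = 4 each), a ratio of means of 8.57. Ascl2 rose by 2.77 on the log2(normalised reads + 1) scale (SE 0.35, limma adjusted p = 0.000403), and by 1.53 with 10 added in place of 1. Ascl2 reached the minimum level for testing only through its mutant libraries, so it had to differ in order to be tested. Its adjusted p and its calls in other settings are therefore a description and support nothing. Without control 3 and mutant 2 the log2 difference was 2.87.

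**Figure D3:**
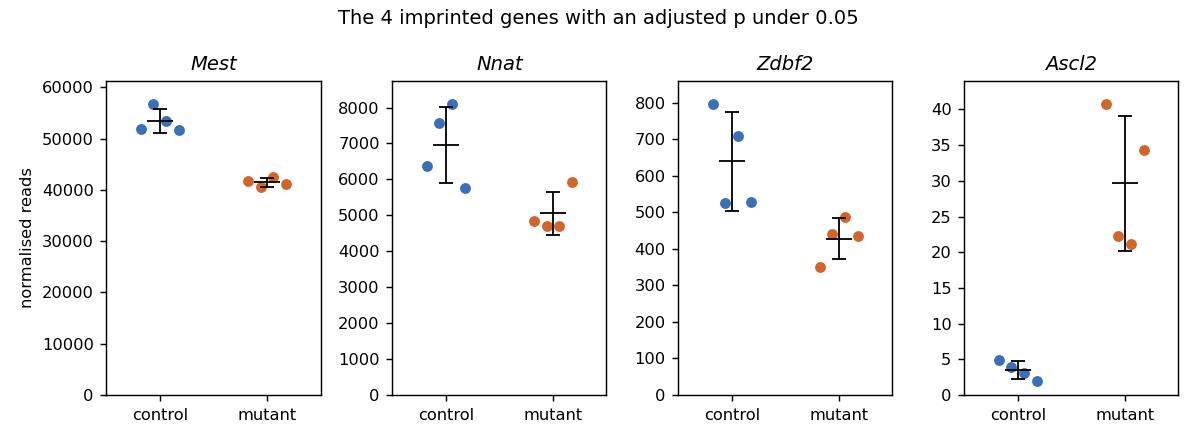
Normalised reads of Mest, Nnat, Zdbf2 and Ascl2 in each library, with group means and SD (n = 4 each) as black bars and each axis starting at 0. Mest, Zdbf2 and Ascl2 do not overlap between the groups, and mutant 4 overlaps the controls for Nnat.

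The promoter sequences of the 4 called genes are printed to show what lies directly before their start sites. They are the 250 bases before a RefSeq transcript start (RefSeq, build GRCm38.p6), 5′ to 3′ on the strand of the gene. Capitals mark TGCCGC, the hexamer bound in its methylated form by ZFP57, a zinc finger protein that protects imprints, and ACGTG or GCGTG, the core of the HIF binding site, both searched on both strands. The windows are chr6:30737800-30738049 (plus strand) for Mest, which has 3 RefSeq windows and is shown for the main transcript, chr2:157559828-157560077 (plus strand) for Nnat, chr1:63273019-63273268 (plus strand) for Zdbf2 and chr7:142969265-142969514 (minus strand) for Ascl2.
Mest: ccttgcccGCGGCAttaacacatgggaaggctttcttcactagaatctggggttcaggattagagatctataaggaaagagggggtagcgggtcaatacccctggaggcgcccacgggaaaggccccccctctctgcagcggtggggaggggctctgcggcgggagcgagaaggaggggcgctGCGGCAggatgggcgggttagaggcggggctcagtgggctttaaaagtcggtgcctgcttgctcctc
Nnat: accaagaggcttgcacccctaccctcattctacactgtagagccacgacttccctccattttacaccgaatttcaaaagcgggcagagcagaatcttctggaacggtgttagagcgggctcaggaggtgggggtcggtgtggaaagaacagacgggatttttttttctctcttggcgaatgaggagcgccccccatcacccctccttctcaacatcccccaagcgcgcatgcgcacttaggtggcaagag
Zdbf2: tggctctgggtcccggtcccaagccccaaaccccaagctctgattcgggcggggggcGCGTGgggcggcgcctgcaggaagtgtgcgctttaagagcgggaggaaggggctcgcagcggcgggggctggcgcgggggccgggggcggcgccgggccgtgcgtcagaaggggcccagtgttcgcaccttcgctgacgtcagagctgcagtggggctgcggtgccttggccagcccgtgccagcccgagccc
Ascl2: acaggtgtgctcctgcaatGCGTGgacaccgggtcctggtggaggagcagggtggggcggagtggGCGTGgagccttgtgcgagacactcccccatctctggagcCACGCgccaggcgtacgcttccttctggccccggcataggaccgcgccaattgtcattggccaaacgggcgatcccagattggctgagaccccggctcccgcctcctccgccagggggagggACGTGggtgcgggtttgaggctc
The Mest stretch holds 2 matches to TGCCGC and 0 to ACGTG or GCGTG, and the Ascl2 stretch holds 0 and 4. The Zdbf2 stretch holds 0 and 1, and the Nnat stretch holds 0 of each, but both genes hold TGCCGC elsewhere in their whole RefSeq windows. The motifs were counted in these windows of 300 bases, which add 50 bases after the start, for the 34 of 41 imprinted genes that have a window. TGCCGC was found for 11 of the 34 genes (32.4%) and for 13.1% of all 27025 genes with a window. ACGTG or GCGTG was found for 22 of the 34 (64.7%) and for 46.7% of all genes. A match describes the letters and is not a binding site, and these shares were not tested.

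The Kcnq1ot1 cluster, to which Ascl2 belongs, is silenced on the paternal chromosome by the long noncoding RNA Kcnq1ot1. Apart from Ascl2, 0 of its 6 other genes were called, against 8.43% of all genes, so the count is no result about the cluster. Kcnq1ot1 was at 1129, 1091, 1094 and 758.9 normalised reads in controls 1 to 4 and at 991.7, 1231, 1449 and 1200 in mutants 1 to 4, with overlap between the groups (log2 difference 0.26, limma adjusted p = 0.325). Kcnq1, a potassium channel gene that overlaps Kcnq1ot1 on the opposite strand, varied from 4.174 in control 3 to 70.13 in control 4, and mutants lay between 23.18 and 57.32. Its log2 difference of 0.80 had a 95% interval from -0.96 to 2.56. It was 0.07 without control 3, 0.32 without control 3 and mutant 2, and 1.33 without control 4. The annotated exons of Kcnq1 and Kcnq1ot1 overlap, so without strand their reads cannot be told apart there, in their levels or in their ratio. Cd81, a tetraspanin, was at 6458 ± 365 and 6653 ± 465 (n = 4 each), and Tssc4, a splicing factor gene, was at 1829 ± 116 and 1725 ± 86.6 (n = 4 each). The growth restraint Phlda2 was near the minimum, at 9.375 ± 2.21 and 11.41 ± 2.05 (n = 4 each), and the transporter gene Slc22a18 was at 23.72 ± 9.26 and 32.53 ± 7.01 (n = 4 each). None of these 4 genes passed the test, and the groups overlapped in each.

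The genes of the Dlk1-Dio3 cluster on chromosome 12 varied strongly between libraries. Of its 6 genes 0 were called, against 8.43% of all genes, so the count is no result about the cluster. From the paternal chromosome the cluster expresses Dlk1, a transmembrane protein related to Notch ligands, Rtl1, derived from a retrotransposon, and Dio3, the enzyme that inactivates thyroid hormone. From the maternal chromosome it expresses the noncoding RNAs Meg3, Rian and Mirg, which host snoRNAs and microRNAs. Dlk1 was at 1800, 559.7, 624 and 473.6 normalised reads in controls 1 to 4 and at 851.5, 328.3, 822.4 and 341.6 in mutants 1 to 4. Control 1 was far above the other controls, and mutants 1 and 3 were above controls 2, 3 and 4. The log2 difference was -0.48 (95% interval -1.73 to 0.77, limma adjusted p = 0.651), and it was -0.05 without control 1. The spread of Dlk1 between libraries of a group, a residual SD of 0.82 on the log2 scale, was larger than that of 97.0% of the tested genes.

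Meg3 was at 1650, 641.2, 736.7 and 636 normalised reads in controls 1 to 4 and at 1346, 803, 1586 and 1136 in mutants 1 to 4. Each mutant was above controls 2, 3 and 4, while control 1 was the highest of all. The log2 difference was 0.49 (95% interval -0.35 to 1.34, limma adjusted p = 0.469), and 0.82 without control 1 (limma adjusted p = 0.0663). Rian was at 1570, 816, 678.3 and 702.3 in controls 1 to 4 and at 1468, 1007, 1627 and 1449 in mutants 1 to 4, with the same library apart. Its log2 difference was 0.63 (limma adjusted p = 0.259), and 0.90 without control 1, where it was called (limma adjusted p = 0.0101). Mirg was at 23.13 ± 11.8 and 27.41 ± 7.3 and Rtl1 at 14.91 ± 12.3 and 15.88 ± 7.98 (n = 4 each), both overlapping between the groups. Rtl1 is overlapped on the opposite strand by microRNA genes.

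Dio3 was lowest in control 1, the library in which Dlk1, Rtl1, Meg3 and Mirg were highest. It was at 37.85, 40.26, 51.13 and 53.8 normalised reads in controls 1 to 4 and at 76.72, 55.64, 71.47 and 92.86 in mutants 1 to 4. Each mutant library was above each control library. The log2 difference was 0.68 (SE 0.20, 95% interval 0.23 to 1.12), which missed the threshold (limma adjusted p = 0.0646). It was called without mutant 2 (0.81, limma adjusted p = 0.043) but not without both control 3 and mutant 2 (0.86, limma adjusted p = 0.0506). In the authors' deposited table its adjusted p is 0.0525.

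Outside this cluster, Plagl1, Peg10, Sgce and Asb4 were also high in control 1 and low in mutant 2. Plagl1, a paternally expressed zinc finger transcription factor, was at 4011, 2131, 1510 and 2092 normalised reads in controls 1 to 4 and at 3039, 1569, 3177 and 2544 in mutants 1 to 4. Control 1 was the highest, control 3 and mutant 2 were the lowest, and the log2 difference was 0.13 (95% interval -0.68 to 0.94). Peg10, derived from a retrotransposon and needed for the placenta, and Sgce, which encodes epsilon-sarcoglycan, are paternally expressed from neighbouring starts in opposite directions. Peg10 was at 386.8 ± 138 and 379.5 ± 120 and Sgce at 133.5 ± 46.4 and 132.4 ± 38 (n = 4 each). For both, control 1 was the highest library, and control 3 and mutant 2 were the lowest. Asb4, a maternally expressed adaptor of ubiquitin ligases, ranged from 34.44 to 98.02 in controls and from 29.67 to 103.2 in mutants.

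The summed stroma markers were likewise highest in control 1 and lowest in mutant 2. They were at 94147 normalised reads in control 1, 65279 in control 2, 49999 in control 3 and 58908 in control 4, and at 77497, 45293, 65026 and 65288 in mutants 1 to 4. Col1a1, Col1a2 and Col3a1 made up most of the sum in control 1, at 17389, 19017 and 24588. Most of the markers were highest in control 1. Foxd1, however, was lowest there (2696), Tcf21 was highest in control 2 (3068) and Meis2 in control 3 (12170). Within each group, other marker sums were also lowest in control 3 and mutant 2. These were the sums for ureteric bud (2172 and 3239), endothelium (1395 and 1911), leukocytes (554.1 and 630.6) and podocytes (10897 and 8871). The sums for progenitors, red cells and podocytes without Cdkn1c did not share this. The part of the stroma or of these other cells in the levels of Dlk1, Meg3, Plagl1, Peg10, Sgce and Asb4 was not tested. Of the most abundant imprinted genes, H19 and Igf2 were highest in mutant 2 and lowest in mutant 3. Grb10 was highest in control 3 and lowest in control 2. Mest was highest in control 2 and, like the stroma sum, lowest in mutant 2. H19, Igf2 and Grb10 deviated from their means over the 8 libraries by at most 0.28 on the log2 scale, and Mest by at most 0.27.

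**Figure D4:**
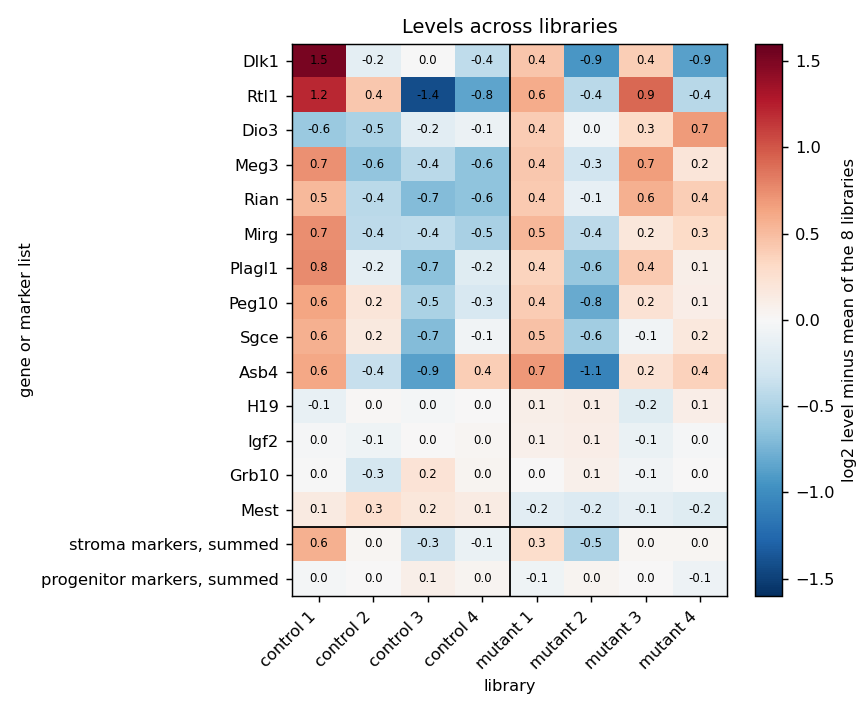
Log2 level of 14 imprinted genes and of the summed stroma and progenitor markers in each library, minus the mean of the 8 libraries. Control 1 is high and mutant 2 low for Dlk1, Plagl1, Peg10, Sgce and Asb4 and for the stroma markers, while H19, Igf2 and Grb10 stay near 0 and Mest separates the groups.

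Of the 5 imprinted genes around the Igf2 growth pathway, 0 passed the test, against 8.43% of all genes. All but Airn were abundant. H19 was at 163323, 179497, 174040 and 177265 normalised reads in controls 1 to 4 and at 188510, 192508, 155313 and 190088 in mutants 1 to 4. Mutants 1, 2 and 4 were above every control and mutant 3 was below every control, so the groups overlapped. The log2 difference was 0.06 (95% interval -0.11 to 0.23, limma adjusted p = 0.697). Igf2, the fetal insulin-like growth factor, shares an enhancer region and a control region with H19. It was at 80181 ± 2540 and 81925 ± 5530 (n = 4 each), a log2 difference of 0.03 (95% interval -0.11 to 0.17).

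Igf2r, the receptor that removes IGF2 from the cell surface, was at 10380 ± 404 and 10186 ± 327 (n = 4 each), with a 95% interval of the log2 difference from -0.14 to 0.09. Airn, the noncoding RNA that silences Igf2r on the paternal chromosome, was at 229.8 ± 32 and 213.7 ± 12.3 (n = 4 each). Grb10, an adaptor that dampens insulin and IGF receptor signalling, was at 77634 ± 10700 and 77873 ± 2950 (n = 4 each), with a 95% interval from -0.19 to 0.22. For these genes the intervals leave room for changes of at most 0.35 on the log2 scale in either direction, the widest being that of Airn. Of the proteins that bind Igf2 mRNA, Igf2bp3 fell by 1.13 in log2 units (SE 0.17, limma adjusted p = 0.00385), from 1862 ± 317 to 853.1 ± 169 normalised reads (n = 4 each). Igf2bp1 was at 5131 ± 379 and 4424 ± 255 (n = 4 each), a log2 difference of -0.21 (limma adjusted p = 0.0798) that was called without control 1 (limma adjusted p = 0.0246) and in the authors' deposited table (adjusted p = 0.0257). Igf2bp2 was at 7676 ± 275 and 7280 ± 60.2 (n = 4 each, limma adjusted p = 0.392).

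The remaining clusters had 0 called genes among the 41, against 8.43% of all genes. In the Peg3 cluster on chromosome 7, Peg3, a zinc finger gene that acts on growth and maternal behaviour, was at 21902 ± 1740 and 20222 ± 2400 (n = 4 each). Its neighbours Usp29, with similarity to deubiquitinases, and Zim1, a maternally expressed zinc finger gene, had log2 differences of -0.08 and -0.35 (limma adjusted p = 0.734 and 0.362). Zim1 was highest in control 1, at 1366 normalised reads, and the other controls lay between 723.4 and 1049, overlapping the mutants at 683.9 to 1020. Ppp1r9a, a gene for an actin-binding protein in the Peg10-Sgce cluster, was at 2293 ± 330 and 2531 ± 390 (n = 4 each).

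The Snrpn-Ube3a cluster corresponds to the human Prader-Willi and Angelman region. Its gene Magel2, a regulator of ubiquitin ligases, was at 33.97, 53.03, 35.48 and 36.51 normalised reads in controls 1 to 4 and at 28.42, 19.47, 30.2 and 28.66 in mutants 1 to 4. Each mutant was below each control, but the log2 difference of -0.55 (SE 0.23) did not pass the test (limma adjusted p = 0.173). Its neighbour Ndn, of the same MAGE family, was at 5005 ± 519 and 4806 ± 428, and the ubiquitin ligase gene Ube3a at 4470 ± 346 and 4587 ± 647 (n = 4 each). Snrpn, which encodes a spliceosome protein, held 1 read in all 8 libraries together and was not tested. Of its 2159 exonic bases in the annotation used here, 216 are shared with Snurf on the same strand and 27.3% with any gene of that strand. The authors' annotation and counter are not known, and the part of shared exons in this low count was not tested. Snurf itself was not found by symbol and was not analysed. Rasgrf1, a Ras activator, held 5 reads in controls and 14 in mutants and was also under the minimum.

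No other single imprinted locus passed the test. Gnas, the gene for the stimulatory G protein alpha subunit, was at 48830 ± 1460 and 46935 ± 3230 normalised reads (n = 4 each). Its transcripts from different promoters, which differ in imprint, were counted together. Impact, a regulator of translation, was at 2017 ± 184 and 2120 ± 112, and Slc38a4, an amino acid transporter gene known for its role in placental supply, was at 4856 ± 240 and 4577 ± 356 (n = 4 each). Peg13, a noncoding RNA, was at 1136 ± 33.2 and 1067 ± 82.4 (n = 4 each). Zrsr1, a retrotransposed gene related to a splicing factor, lies within Commd1, a gene for a copper metabolism protein, on the opposite strand. Their annotated exons overlap, so without strand their reads cannot be told apart there, in their levels or in their ratio. Zrsr1 was at 411.2 ± 48.6 and 441.8 ± 48.5 and Commd1 at 2616 ± 180 and 2373 ± 193 (n = 4 each). Nap1l5, a small gene related to nucleosome assembly proteins, was at 14.09 ± 1.22 in controls and 18.64 ± 10.4 in mutants (n = 4 each), where it ranged from 8.025 to 30.31.

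Neighbours of a cluster were also compared within each library as a log2 ratio, with 1 added to each level. The ratio depends little on the scaling of the libraries, except for genes with few reads such as Kcnq1. Of 11 planned ratios 10 could be formed, and 0 had an adjusted p under 0.05 over the 10. Two-sided exact permutation tests of 4 against 4 libraries cannot give a p below 0.0286, and the smallest adjusted p was 0.143. The ratio of Meg3 to Dlk1 was -0.13, 0.20, 0.24 and 0.42 in controls 1 to 4 and 0.66, 1.29, 0.95 and 1.73 in mutants 1 to 4. Each mutant was above each control, control 1 included, although neither gene alone separated the groups. The log2 ratio differed by 0.97 (exact p = 0.0286, adjusted p = 0.143), and by 0.78 to 1.14 when 1 library was left out.

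The log2 ratio of Mest to Copg2 was between 3.26 and 3.38 in controls and between 2.79 and 2.93 in mutants, without overlap (difference -0.43, exact p = 0.0286, adjusted p = 0.143). The ratio of Nnat to Blcap was 1.97 ± 0.17 in controls and 1.57 ± 0.21 in mutants (n = 4 each), with overlap (exact p = 0.0571, adjusted p = 0.19). The ratio of H19 to Igf2, which share a control region, was 1.11 ± 0.08 and 1.15 ± 0.08 (n = 4 each, exact p = 0.571). The other ratios had an exact p of 0.114 for Zrsr1 to Commd1, 0.371 for Rian to Meg3, 0.6 for Airn to Igf2r, 0.629 for Kcnq1ot1 to Kcnq1, 0.771 for Peg10 to Sgce and 0.857 for Peg3 to Usp29.

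**Figure D5:**
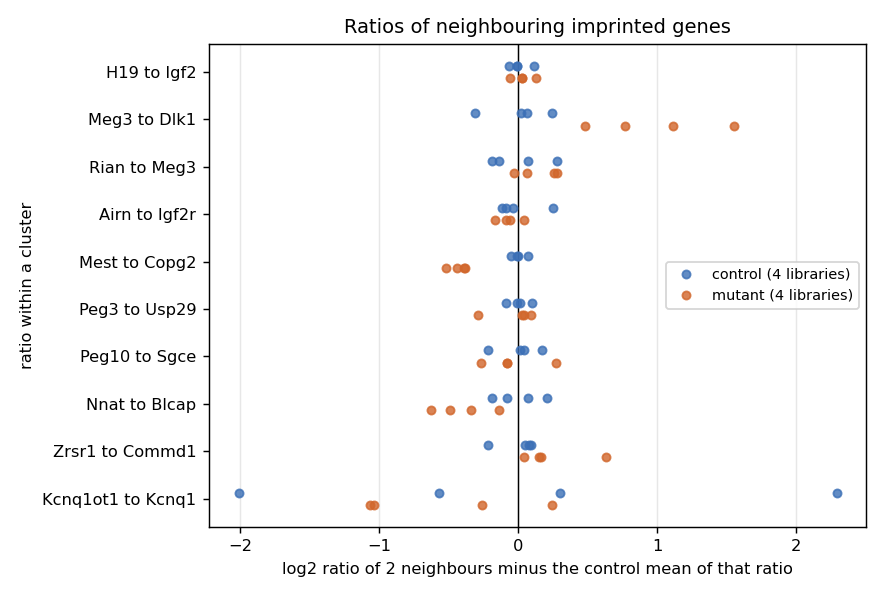
Log2 ratio of neighbouring imprinted genes in each library, minus the control mean of that ratio, with controls in blue and mutants in orange (4 libraries each). The groups do not overlap for Meg3 to Dlk1, where mutants lie to the right, and for Mest to Copg2, where mutants lie to the left.

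Imprinted genes outside the 41 were read from a further list of 48, of which 38 were tested. Of these, 2 rose and 4 fell, against 5.40% and 3.03% of all genes, and the median log2 fold change was -0.05. Ddc, which encodes DOPA decarboxylase and neighbours Grb10, rose by 0.63 (SE 0.09, limma adjusted p = 0.0013), from 325.8 ± 32.6 to 501.3 ± 18.3 normalised reads (n = 4 each). Begain, which lies beside Dlk1, rose by 0.71 (SE 0.11, limma adjusted p = 0.00162), from 217.7 ± 27.3 to 354.4 ± 13.4 (n = 4 each). For both, each mutant was above each control. Peg12, an intronless gene of the Snrpn-Ube3a cluster that is related to regulators of Wnt signalling, fell by 0.46 (SE 0.07, limma adjusted p = 0.00149), from 1308 ± 100 to 950.3 ± 40.8 (n = 4 each). These 3 calls held in all 19 other settings, with adjusted p values of up to 0.0103, 0.0126 and 0.0142.

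The other falls were close to the threshold: Tnfrsf22, a decoy receptor gene, by 0.29, Klf14, a transcription factor gene near Mest, by 0.63, and Ago2, the Argonaute of RNA interference, by 0.25 (limma adjusted p = 0.0331, 0.0402 and 0.0487). Each was lost in at least 11 of the 19 other settings. When 1 library was left out, Tnfrsf22 was lost for each of the 8 libraries (adjusted p of up to 0.0842), Klf14 for every library but mutant 3 (up to 0.113) and Ago2 for every library but control 1 and mutant 2 (up to 0.161).

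Of 24 genes listed around imprint maintenance, not all of which protect imprints, 21 were tested, and 2 rose and 0 fell. This share is near the 8.43% called among all genes, and the median log2 fold change was 0.02. The 2 that rose encode enzymes that oxidise methylated cytosine and so promote its loss. Tet2 rose by 0.55 (SE 0.09, limma adjusted p = 0.00272), from 1474 ± 151 to 2161 ± 216 normalised reads, and Tet1 by 0.43 (SE 0.08, limma adjusted p = 0.00514), from 2745 ± 159 to 3708 ± 389 (n = 4 each). For both, each mutant was above each control, and Tet1 was lost without control 2 and mutant 2 (limma adjusted p = 0.0509). Genes that protect imprints did not pass the test: Zfp57 was at 1227 ± 96.2 and 1060 ± 105 (limma adjusted p = 0.151), its corepressor Trim28 at 35902 ± 3360 and 32215 ± 3240 (0.315), and the maintenance methyltransferase Dnmt1 at 16457 ± 1410 and 15452 ± 572 (0.481, n = 4 each). Ctcf, which insulates Igf2 from its enhancers on the maternal chromosome, was at 7745 ± 232 and 8356 ± 229 (n = 4 each, limma adjusted p = 0.211). DNA methylation itself was not measured.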

How the data were processed

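Polyadenylated RNA of 8 libraries was sequenced, 4 control and 4 mutant, grouped by the genotype in the labels. The submitters' processing notes name STAR 2.5.3a, DESeq2 1.18.1 and mm10. Not given in the sources used here are the authors' counter, annotation and use of strand. For each library the deposited table holds a signal: per the file headers and the numbers themselves, gene reads scaled by size factors. The scaling had been applied a second time, with the factors recycled down the genes. Both steps were undone, and whole reads were rebuilt for 20254 of 20254 genes (relative tolerance 1e-09). The authors' log2 fold changes and p-values in the same deposited table served as an alternative test. The deposited score and the authors' standard errors were left out.

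Values divided once by the size factors are called normalised reads. Genes with at least 10 in at least 4 libraries were tested (15381) on log2(value + 1) with limma 3.58.1 (R 4.3.3), with variances that follow the level and are robust to outlying genes. The fit had no covariate, and two-sided p-values had Benjamini-Hochberg adjustment over all tested genes, with calls under 0.05. Group means with their SDs refer to normalised reads. The fit was also tried on simulated reads that gave every gene the same relative spread beyond counting. That trial says nothing about genes with a wider spread, such as Dlk1. Ratios of neighbours had exact permutation tests over 70 relabellings. Exon overlap and gene positions come from GENCODE M21, and promoters from RefSeq.

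The genes named are every imprinted gene at the minimum mean of 10, Vhl, up to 8 called genes of each of the lists of other imprinted and of imprint maintenance genes, and the 3 genes for proteins that bind Igf2 mRNA. Genes of these lists that were not called, and single marker genes, are named after their values were seen. Marker lists were summed for progenitors, stroma, podocytes, ureteric bud, endothelium, leukocytes and red cells. For red cells 4 of 8 markers were in the table, with sums of 75.61 to 130.4 in controls and 63.05 to 129.8 in mutants. Members and lists were chosen with earlier results of these data known. The libraries held 37252683 to 46515762 reads, and both the spread between libraries and, for genes near the minimum, counting limit the precision. Other settings changed the constant added, the filter, the scaling (TMM), the replicate block, the variance model, the test (limma-voom on the rebuilt reads, the authors' test) and the libraries. A count model was planned, and limma-voom was run in its place.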

Additional observations from a re-analysis of the deposited data

Results flagged for a closer look

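In 14 of 126 sets of 4 libraries, 1 library stood apart from the other 3 (gap over range above 0.829). Chance gives about 1 in 20 such sets. Among the imprinted genes of the report, H19 was low in mutant 3 (155313 normalised reads, the other mutants from 188510 to 192508), Nnat was high in mutant 4 (5934 against 4708 to 4845), and Impact was low in mutant 1 (1953 against 2162 to 2190). In control 1, Meg3 was high (1650 against 636 to 736.7), as was Mirg (40.76 against 16.33 to 17.74). In control 4, Usp29 was low (160.4 against 180.5 to 184.7), as was Kcnq1ot1 (758.9 against 1091 to 1129). Blcap was high in control 3 (1972 against 1671 to 1718). Magel2 was high in control 2 (53.03 against 33.97 to 36.51) and low in mutant 2 (19.47 against 28.42 to 30.2).

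The log2 ratio of Peg3 to Usp29 was low in mutant 4 (6.65 against 6.97 to 7.03), and that of Zrsr1 to Commd1 in control 3 (-2.89 against -2.62 to -2.58). Outside the 41 genes, Ago2 was high in control 3 (7200 against 6425 to 6455) and Igf2bp2 was low in control 2 (7268 against 7763 to 7869).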

How the results depend on the processing

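Of 778 combinations of an imprinted gene with 1 of 19 other settings, 752 kept their side of the threshold, 23 lost a call (Nnat and Zdbf2), 3 gained one (Dio3 and Rian) and 0 reversed. Mest was called in each setting. So was Ascl2, but it was tested only through its mutant libraries, so its calls support nothing. The number of imprinted genes called was 2 with limma without both the trend in variance and the robust option, and 2 to 4 with 1 library left out. The settings chosen after seeing the data were the pairs of libraries left out and the deposited values as they are: 2 were called without control 3 and mutant 2, 2 without control 2 and mutant 2, 3 without controls 1 and 3 (Ascl2, Mest and Rian), and 2 with the deposited values. The number of all genes called, 1297, was 764, 662 and 1039 without these pairs, 698 with the deposited values (538 higher and 160 lower, against 831 and 466), and 774 to 1565 with 1 library left out. Fewer libraries were fitted in the settings that leave some out, and the cause of the different counts was not tested in any setting.

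The replicate numbers of controls and mutants do not pair the libraries: libraries with the same number deviated together by a correlation of 0.21, -0.14, -0.14 and 0.06. With a replicate block, 766 genes and 2 imprinted genes were called: Mest, and Ascl2, which was tested only through its mutant libraries. With the block, the smallest p that 4 pairs allow for a ratio is 0.125.

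For genes with few reads, such as Phlda2, Rtl1 and Ascl2, depth limits the fold change, and Snrpn and Rasgrf1 were too low to test. Planned count models were not run on the rebuilt reads.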

Other observations

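Some imprinted genes outside the 41 had values near the threshold and are given here after they were seen. Snhg14, the long noncoding RNA that runs from the Snrpn side into Ube3a on the opposite strand, was at 351.3, 242.5, 255.7 and 234.4 normalised reads in controls 1 to 4 and at 310.7, 470.1, 583.9 and 669.5 in mutants 1 to 4. Mutants 2, 3 and 4 were above each control, and mutant 1 lay within the control range. The log2 difference was 0.87 (SE 0.23, limma adjusted p = 0.0551), and the authors' deposited table gives it an adjusted p of 0.000839. Its exons overlap those of Ube3a, so without strand the reads of the 2 genes cannot be told apart there.

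Osbpl5 and Tnfrsf23, listed among the other imprinted genes and lying at the far end of the Kcnq1ot1 cluster, were lower in each mutant than in each control. Osbpl5 was at 2077 ± 179 and 1769 ± 60.5 normalised reads (SD, n = 4 each, limma adjusted p = 0.0619), and Tnfrsf23 at 171.3 ± 17.2 and 126.3 ± 9.88 (SD, n = 4 each, limma adjusted p = 0.0513). The authors' deposited table calls both, with adjusted p values of 0.0203 and 0.0312. Cdkn1c, a cell cycle inhibitor of the same cluster that is also on the podocyte list, was at 9440 ± 1180 and 7696 ± 1260 (SD, n = 4 each, limma adjusted p = 0.174), with overlap between the groups. The other 9 podocyte markers, summed, had means of 5243 and 2853, and their part in the level of Cdkn1c was not tested.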
